A study of Mus musculus with 6 samples.

Results

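The 10 genes described here encode the enzymes of serine synthesis (Phgdh, Psat1 and Psph), the folate-dependent one-carbon enzymes that act on serine (Shmt1, Shmt2, Mthfd1, Mthfd1l and Mthfd2), asparagine synthetase (Asns) and the enzyme that starts proline synthesis from glutamate (Aldh18a1). They were taken by gene symbol, and all 10 were found among the 16171 genes of the count table and passed the filter on low counts. The cells were Raw264.7, a mouse macrophage line labelled WT, cultured on titanium coated with calcium phosphate nanowires (THCaP, 3 libraries) or on the titanate nanowires left by alkaline heating (TH, 3 libraries). On both surfaces the cells attached for 12 h, were exposed to 1 µg/mL of lipopolysaccharide (LPS) for 2 h and were collected after a further 1 d of culture. Since every library received LPS, no library shows expression without it. Separate cultures are not stated for the replicates, so p-values measure the spread between these libraries, which may be technical.

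Serine is made from the glycolytic intermediate phosphoglycerate by oxidation, transfer of an amino group from glutamate and removal of the phosphate. Serine hydroxymethyltransferases then move a carbon unit from serine to tetrahydrofolate, and the mitochondrial and cytosolic folate enzymes pass it on, partly as formate, to purine, thymidylate and methionine synthesis. In proliferating cells and in activated macrophages serine feeds nucleotides, glutathione and methylation, and several of these genes, Asns above all, are textbook targets of ATF4, the transcription factor of the amino acid response.

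Total counts ran from 28000099 to 29453473 in THCaP libraries and from 28198285 to 30317108 in TH libraries. On the first principal component of log2 CPM (counts scaled by library size, here with TMM factors), which held 60.5% of the variance, THCaP libraries lay at 19.3, 35.9 and 5.17 and TH libraries at −16.3, −22.2 and −21.9 (replicates 1, 2 and 3). THCaP replicate 2 was thus farthest from TH and THCaP replicate 3 nearest to it. Macrophage markers were expressed on both surfaces: 9 of 10 passed the filter, with a summed level of 3099 to 3303 CPM on THCaP and 2966 to 3448 CPM on TH, Csf1r being the highest and Mrc1 the only one below the filter. Markers of other cells were near the detection limit, with summed levels of at most 0.545 CPM on THCaP and 0.685 CPM on TH for stromal cells, 0.702 CPM on THCaP and 0.609 CPM on TH for lymphoid cells, and 0.035 CPM on THCaP and 0.036 CPM on TH for neutrophils, whose S100a8 had a count of 0 in every library. In bulk RNA of this kind, a change in the share of cells that express a gene and a change in the level per cell cannot be told apart.

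Of the 10 genes, 7 rose on THCaP: Shmt1, Shmt2, Mthfd1, Mthfd2, Phgdh, Psat1 and Aldh18a1 (edgeR quasi-likelihood test, Benjamini-Hochberg adjusted p under 0.05 over all 11480 tested genes). Psph, Mthfd1l and Asns were not called, and 0 of the 10 fell. Over all tested genes the same edgeR test called 11.6% higher and 12.0% lower, 23.6% in all. At an adjusted p under 0.05 DESeq2 called 9 of the 10 genes higher and 0 lower, and 1691 of all tested genes higher and 1723 lower. With limma-voom 6 of the 10 were called higher and 0 lower, and 1261 of all tested genes higher and 1384 lower. At an unadjusted p under 0.05 edgeR had 9 of the 10 higher and 0 lower, a threshold at which all genes were not counted. Log2 fold changes, THCaP over TH, ran from 0.20 for Mthfd1l to 0.77 for Shmt1, with a median of 0.38, against 0.0064 over all tested genes. In 9 of the 10 genes each THCaP library lay above each TH library, a separation seen in 22.1% of all tested genes; Asns was the exception.

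These calls depended on single libraries. The number of the 10 genes called higher was 0 without THCaP replicate 1, 0 without TH replicate 2 and 0 without TH replicate 3. It was 2 without TH replicate 1 (Shmt2 and Mthfd1), 3 without THCaP replicate 2 (Shmt1, Shmt2 and Mthfd1) and 10 without THCaP replicate 3. In the edgeR fits with no call, 8, 9 and 7 of the genes were higher at an unadjusted p under 0.05, a threshold at which all genes were not counted. At an adjusted p under 0.05 those fits called 291, 294 and 294 of all genes higher in place of 1333. The fits without TH replicate 1, THCaP replicate 2 and THCaP replicate 3 called 1071, 734 and 2145 of all genes higher. The log2 fold changes stayed above 0 for all 10 genes whichever library was left out, between 0.14 (Asns) and 0.96 (Shmt1).

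**Figure D1:**
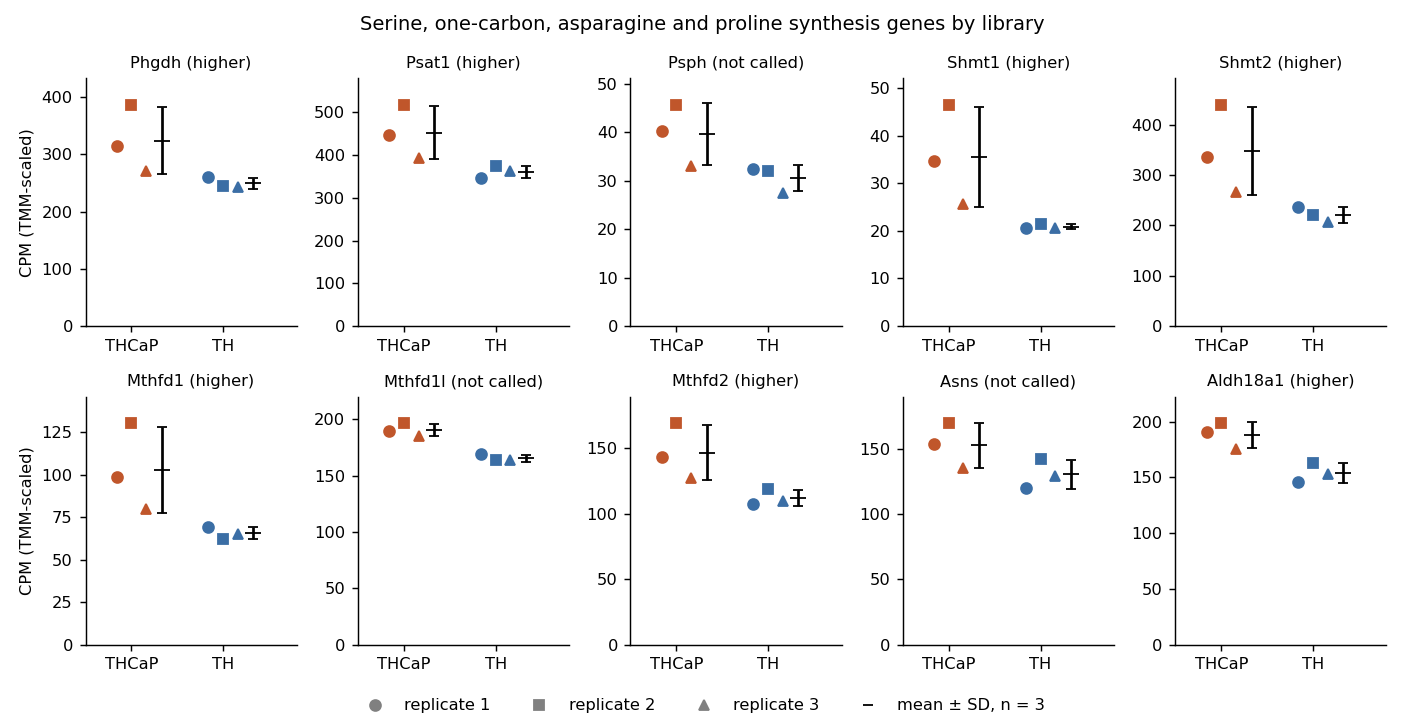
Level of each of the 10 genes in TMM-scaled CPM (vertical axes from 0) in the 3 THCaP and the 3 TH libraries; symbols mark the replicate number, and the black bar is the mean ± SD. In every panel THCaP replicate 2 is the highest library, and Asns is the panel in which THCaP and TH libraries overlap.

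The largest increases were in the serine hydroxymethyltransferases and in Mthfd1. Shmt1, the cytosolic form, which interconverts serine and glycine, had 34.7, 46.5 and 25.6 CPM in THCaP replicates 1, 2 and 3, against 20.6, 21.5 and 20.6 CPM in TH replicates 1, 2 and 3. The TH libraries lay within 1 CPM of each other, while the THCaP libraries were spread widely above them. Shmt1 averaged 35.6 ± 10.5 CPM on THCaP and 20.9 ± 0.532 CPM on TH (SD, n = 3 each), a 1.70-fold increase (log2 fold change 0.77, SE 0.18, edgeR adjusted p = 0.0185). Shmt1 overlaps Smcr8 on the opposite strand, which averaged 2814 counts on THCaP and 3136 counts on TH, and since the strand setting of the counting is not given, reads of the overlap are not separable.

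Shmt2, the mitochondrial form and the main source of folate-bound carbon units in many proliferating cells, stood at 335.8, 438.8 and 265.4 CPM on THCaP, against 235.7, 220.1 and 205.6 CPM on TH. Again the surfaces did not overlap, and the lowest THCaP library was replicate 3. The increase was 1.57-fold (347 ± 87.2 CPM on THCaP and 220.5 ± 15.1 CPM on TH; log2 fold change 0.65, SE 0.16, edgeR adjusted p = 0.0193).

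Mthfd1 encodes the cytosolic enzyme with dehydrogenase, cyclohydrolase and formyl-tetrahydrofolate synthetase activities. Its level was 98.8, 130.3 and 79.8 CPM in THCaP libraries, against 69.1, 62.0 and 65.4 CPM in TH libraries. The THCaP libraries were all higher, by 1.57-fold on average (103 ± 25.5 CPM on THCaP and 65.5 ± 3.57 CPM on TH; log2 fold change 0.65, SE 0.15, edgeR adjusted p = 0.0180). Among tested genes, the log2 fold changes of Shmt1, Shmt2 and Mthfd1 lay at percentiles 97.9, 96.6 and 96.5.

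Of the mitochondrial folate enzymes, Mthfd2 rose and Mthfd1l was not called, and the difference between them was not tested. Mthfd2, the mitochondrial methylene-tetrahydrofolate dehydrogenase and cyclohydrolase, had 143.1, 168.9 and 127.3 CPM on THCaP, against 107.3, 118.7 and 109.8 CPM on TH. It rose 1.31-fold without overlap of the surfaces (log2 fold change 0.39, SE 0.11, edgeR adjusted p = 0.0306). Mthfd1l, the mitochondrial formyl-tetrahydrofolate synthetase that releases formate, had 189.7, 196.4 and 185.4 CPM on THCaP, against 169.3, 163.6 and 163.6 CPM on TH. The surfaces did not overlap, and its libraries were the least spread of the 10 genes on both surfaces, with a coefficient of variation of 2.91% on THCaP and 2.00% on TH. Its 1.15-fold difference was not called (log2 fold change 0.20, SE 0.07, edgeR adjusted p = 0.0648). DESeq2 called Mthfd1l higher (adjusted p = 0.0399), as did edgeR scaled by library totals alone (adjusted p = 0.0291). Scaling by library totals moved the median log2 fold change of all tested genes from 0.0064 to 0.059. Mthfd1l was not called by limma-voom (adjusted p = 0.0612), nor by edgeR without the filter (0.105) or with the replicate number as a block (0.149). Of the 11 alternatives other than leaving out 1 library, 6 called it. Besides DESeq2 and library totals, these were the fits of FPKM and the fit without TH replicate 1 and THCaP replicate 2 together. FPKM, like library totals, use no TMM factors, so the 6 are not separate checks.

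**Figure D2:**
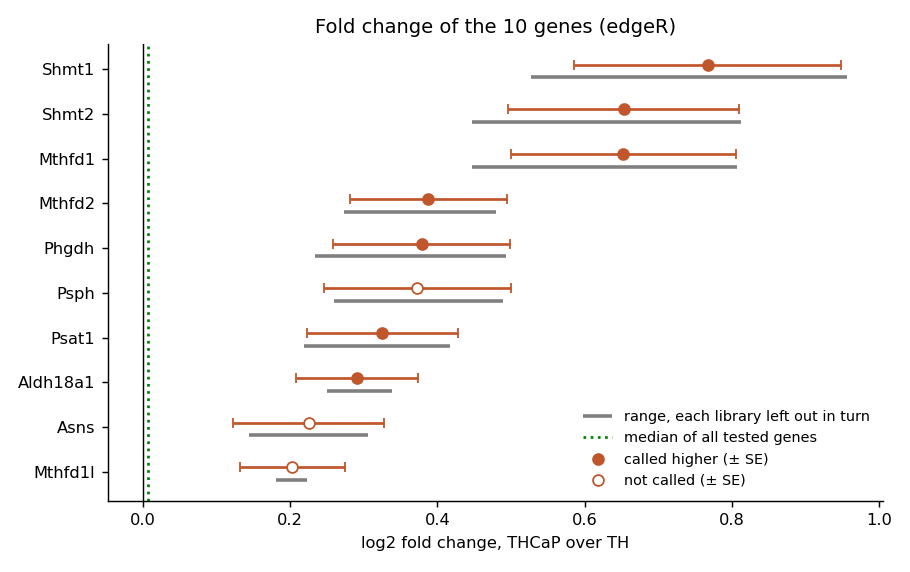
Log2 fold change (THCaP over TH) of each gene with its SE from edgeR; filled points were called higher, open points were not called, and the grey bar below each point spans the values obtained when each library was left out in turn. All points and bars lie above 0, and Shmt1, Shmt2 and Mthfd1 stand above the other 7 genes.

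Of the 3 serine synthesis enzymes, Phgdh and Psat1 rose and Psph was not called. Phgdh, which oxidises phosphoglycerate in the first step, had 315.1, 386.4 and 270.9 CPM on THCaP, against 260.7, 245.0 and 242.3 CPM on TH. The highest TH library stood just below the lowest THCaP library. Phgdh averaged 324 ± 58.3 CPM on THCaP and 249 ± 9.93 CPM on TH (SD, n = 3 each) and rose 1.30-fold (log2 fold change 0.38, SE 0.12, edgeR adjusted p = 0.0471). With limma-voom Phgdh missed the threshold (log2 fold change 0.36, adjusted p = 0.0523). A processed pseudogene of Phgdh is annotated on chromosome 7 and is not a row of the count table, so reads of near-identical sequence may have been shared or lost.

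Psat1, the aminotransferase of the second step, was at 446.8, 517.4 and 393.5 CPM on THCaP, against 347.1, 374.5 and 362.1 CPM on TH. It rose 1.25-fold (453 ± 62.2 CPM on THCaP and 361 ± 13.7 CPM on TH; log2 fold change 0.33, SE 0.10, edgeR adjusted p = 0.0466). Psph, the phosphatase that completes serine, had 40.2, 45.6 and 32.9 CPM on THCaP, against 32.4, 31.9 and 27.4 CPM on TH. THCaP replicate 3 stood just above TH replicate 1, and the 1.29-fold difference was not called (log2 fold change 0.37, SE 0.13, edgeR adjusted p = 0.0575). Psph was called with library totals (adjusted p = 0.0361), without the filter (0.0408) and with DESeq2 (0.0284), but not with limma-voom (0.0660). It was called in 6 of the 11 alternatives other than leaving out 1 library, among them library totals and filtered FPKM, which use no TMM factors. It overlaps Cct6a on the opposite strand, which averaged 7896 counts on THCaP and 5383 on TH, and its part in the Psph value was not tested.

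Asns, which makes asparagine from aspartate and glutamine, was the gene whose surfaces overlapped. Its level was 153.7, 169.8 and 135.3 CPM in THCaP libraries, against 120.5, 142.6 and 129.4 CPM in TH libraries. THCaP replicate 3 lay below TH replicate 2, and the 1.17-fold difference was not called (log2 fold change 0.22, SE 0.10, edgeR adjusted p = 0.134). Over the alternatives tried, the adjusted p ran from 0.0289, without THCaP replicate 3, to 0.415. Aldh18a1, which turns glutamate into the precursor of proline and ornithine, had 191.0, 198.4 and 175.5 CPM on THCaP, against 145.9, 163.2 and 152.8 CPM on TH. It rose 1.22-fold without overlap (188 ± 11.7 CPM on THCaP and 154 ± 8.72 CPM on TH; log2 fold change 0.29, SE 0.08, edgeR adjusted p = 0.0339).

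Across the 10 genes the THCaP libraries kept 1 order. Replicate 2 was highest, replicate 1 intermediate and replicate 3 lowest in 10 of 10 genes. The same order held in 1055 of the 1333 tested genes called higher (79.1%) and in 33.5% of all tested genes, and it is the order of these libraries on the first principal component. Relative to the mean of TH, Shmt1 lay 0.73, 1.15 and 0.29 higher on the log2 scale in THCaP replicates 1, 2 and 3, and Mthfd1 0.59, 0.99 and 0.28. Mthfd1l differed least between these libraries, at 0.20, 0.25 and 0.16. The coefficient of variation of the 10 genes was 2.91% to 29.5% on THCaP and 2.00% to 9.01% on TH. Summed over the 10 genes, the level was 1949, 2299 and 1692 CPM in THCaP libraries, against 1509, 1543 and 1479 CPM in TH libraries.

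**Figure D3:**
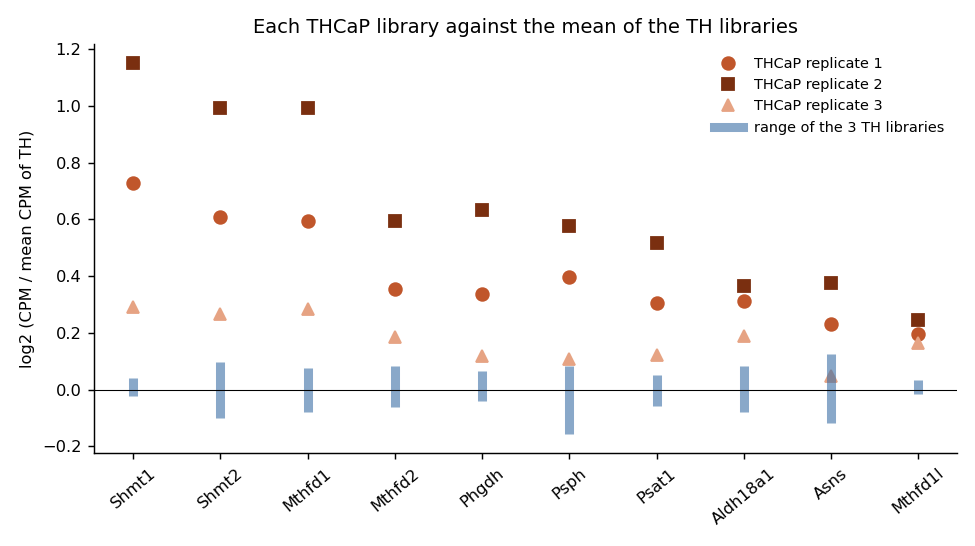
Log2 ratio of each THCaP library to the mean CPM of the TH libraries for each gene, with the range of the 3 TH libraries as a bar around 0. Replicate 2 is highest and replicate 3 lowest for every gene, and replicate 3 falls inside the TH range for Asns only.

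Levels can be compared between genes only per length, for which the deposited FPKM (fragments relative to gene length and library size) were used. Psat1, Phgdh and Shmt2 were the most abundant on both surfaces, at 185 ± 24.9, 176 ± 31.3 and 153 ± 38.1 FPKM on THCaP and 142 ± 5.25, 131 ± 5.91 and 93.9 ± 7.01 FPKM on TH. Asns, Mthfd2, Aldh18a1 and Mthfd1l followed in that order on both surfaces, from 65.8 to 43.3 FPKM on THCaP and from 54.3 to 36.3 FPKM on TH. Mthfd1, Psph and Shmt1 were the lowest, at 25.3 ± 6.19, 13.1 ± 2.09 and 11.8 ± 3.46 FPKM on THCaP and 15.5 ± 0.878, 9.79 ± 0.944 and 6.71 ± 0.186 FPKM on TH. The order of the 10 genes was thus the same on both surfaces. Neighbours in this order whose FPKM ranges overlapped on THCaP were Psat1 and Phgdh, Phgdh and Shmt2, Asns and Mthfd2, Mthfd2 and Aldh18a1, and Psph and Shmt1, while on TH only Mthfd2 and Aldh18a1 overlapped.

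The ratio of a mitochondrial to a cytosolic enzyme within a library does not depend on how libraries are scaled. Shmt2 exceeded Shmt1 by 12.9-, 12.5- and 13.8-fold in FPKM in THCaP libraries, against 15.2-, 13.6- and 13.2-fold in TH libraries. These ratios overlapped (difference in log2 ratio −0.10, exact two-sided permutation p = 0.3), and the difference was −0.04 without TH replicate 1. The ratio of Mthfd1l to Mthfd1 was 1.78, 1.40 and 2.16 in THCaP libraries, against 2.27, 2.45 and 2.32 in TH libraries. It was lower in all 3 THCaP libraries, by 0.42 on the log2 scale (mean log2 ratio 0.81 ± 0.31 on THCaP and 1.23 ± 0.06 on TH; exact permutation p = 0.1, the smallest that 3 against 3 libraries allow). Without THCaP replicate 2 the difference in log2 ratio was −0.26. The ratio of Mthfd2 to Mthfd1 overlapped between the surfaces, at 2.54, 2.27 and 2.80 in THCaP libraries, against 2.72, 3.36 and 2.94 in TH libraries (difference in log2 ratio −0.25, exact permutation p = 0.2). With Benjamini-Hochberg adjustment over these 3 ratios each exact permutation p is 0.3.

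**Figure D4:**
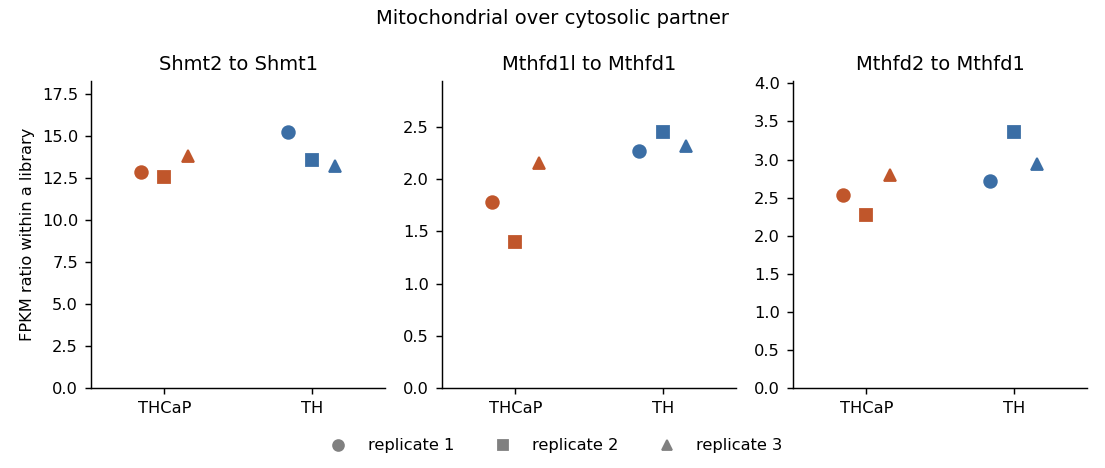
FPKM of a mitochondrial enzyme gene divided by that of a cytosolic one within each library, on axes from 0; symbols mark the replicate number. For Mthfd1l over Mthfd1 the THCaP libraries (1.40 to 2.16) lie below the TH libraries (2.27 to 2.45), and the other ratios overlap.

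On GRCm38 all 10 genes are annotated as protein coding. Shmt1 spans positions 60788104 to 60811718 of chromosome 11, Shmt2 positions 127517123 to 127522444 of chromosome 10, Mthfd1 positions 76255298 to 76319803 of chromosome 12 and Asns positions 7675169 to 7693254 of chromosome 6. Promoter windows are shown for the 3 genes with the largest increases and for Asns, whose promoter is the textbook example of an amino acid response element. All 10 genes matched the RefSeq table of GRCm38.p6, which gives 250 bases before and 50 bases after each start, and Psat1 has windows for more than 1 start. The windows below run 5′ to 3′ on the strand of the gene: Shmt1 at chr11:60811216-60811515 (minus strand), Shmt2 at chr10:127522395-127522694 (minus), Mthfd1 at chr12:76254982-76255281 (plus) and Asns at chr6:7693160-7693459 (minus). Capitals mark matches, on either strand, to the C/EBP-ATF composite element (TGATGNAA), the adjoining Asns element (GTTACA), the CCAAT box (CCAAT), the GC box (GGGCGG) and the E-box (CACGTG).
Shmt1: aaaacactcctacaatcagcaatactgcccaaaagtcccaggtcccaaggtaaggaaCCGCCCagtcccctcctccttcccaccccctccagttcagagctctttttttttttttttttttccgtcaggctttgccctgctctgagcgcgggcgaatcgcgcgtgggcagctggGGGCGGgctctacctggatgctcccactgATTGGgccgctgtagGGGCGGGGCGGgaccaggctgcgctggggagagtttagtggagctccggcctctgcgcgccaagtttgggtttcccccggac
Shmt2: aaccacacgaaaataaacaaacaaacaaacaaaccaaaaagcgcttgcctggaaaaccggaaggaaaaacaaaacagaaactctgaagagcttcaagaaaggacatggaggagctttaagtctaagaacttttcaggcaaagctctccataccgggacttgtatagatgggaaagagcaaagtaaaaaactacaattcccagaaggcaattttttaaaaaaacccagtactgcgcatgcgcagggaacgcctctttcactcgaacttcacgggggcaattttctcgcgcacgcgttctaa
Mthfd1: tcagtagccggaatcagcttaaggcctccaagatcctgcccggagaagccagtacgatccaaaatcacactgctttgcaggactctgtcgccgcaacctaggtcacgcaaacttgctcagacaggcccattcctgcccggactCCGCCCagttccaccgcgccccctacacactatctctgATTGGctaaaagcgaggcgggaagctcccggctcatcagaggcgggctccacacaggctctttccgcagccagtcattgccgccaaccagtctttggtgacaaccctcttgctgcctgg
Asns: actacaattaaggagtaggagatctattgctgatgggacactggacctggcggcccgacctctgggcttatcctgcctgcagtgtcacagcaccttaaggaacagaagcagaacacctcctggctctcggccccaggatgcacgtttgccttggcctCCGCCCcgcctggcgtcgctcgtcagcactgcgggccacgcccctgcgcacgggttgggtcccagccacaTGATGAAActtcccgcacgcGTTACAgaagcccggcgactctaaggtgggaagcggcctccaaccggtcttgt
The motifs were chosen after the values were seen, and a match is only a match of letters. The Asns window held the C/EBP-ATF element with its first base at position −23 from the start and GTTACA at −3. It was the only one of the 10 genes with either, where 3.97% of all 32851 windows of that length held the first and 8.25% the second. The CCAAT box was in windows of 6 of the 10 genes (Phgdh, Psat1, Psph, Shmt1, Mthfd1 and Mthfd2), against 37.4% of all windows, and it began at −47 in Shmt1 and −69 in Mthfd1. The GC box was in 7 of the genes, against 35.7% of all windows, with an overlapping pair in Shmt1 beginning at −32 and −27. A gene was counted if any of its windows matched, so these counts of genes and shares of windows are not on the same base. Psat1 had the CCAAT box and the GC box in windows of different starts. The E-box was in the Aldh18a1 window only, against 7.15% of all windows. The Shmt2 window, the poorest in G and C of the 10 genes (42.7%), held none of these motifs.

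Of 20 tested partners in folate and one-carbon metabolism, 3 rose, 0 fell and 17 were not called, with a median log2 fold change of 0.06. Over all tested genes 11.6% were called higher and 12.0% lower, the shares to set beside this list and those below. At an unadjusted p under 0.05, at which all genes were not counted, edgeR had 5 of the partners higher and 2 lower. At an adjusted p under 0.05 DESeq2 called 4 higher and 0 lower, and limma-voom 3 and 0. Over all tested genes DESeq2 called 1691 higher and 1723 lower, and limma-voom 1261 and 1384. The thymidylate synthase gene Tyms, which consumes methylene-tetrahydrofolate, had 23.5, 35.6 and 17.1 CPM on THCaP, against 12.3, 10.2 and 11.0 CPM on TH (log2 fold change 1.18, SE 0.23, edgeR adjusted p = 0.00956). Methionine synthase (Mtr), which takes a methyl group from folate, rose 1.41-fold (log2 fold change 0.50, SE 0.10, edgeR adjusted p = 0.0117). Tyms and Mtr kept their call without each library in turn, with adjusted p up to 0.0451 and 0.0468.

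Purine synthesis takes formyl groups from the folate pool. The list used here also holds salvage and other purine genes that take no formyl group. Of its 14 tested genes, 8 rose, 2 fell and 4 were not called, and the median log2 fold change was 0.31. Over all tested genes 11.6% were called higher and 12.0% lower. Pfas rose 1.76-fold (104 ± 25.0 CPM on THCaP and 59.4 ± 2.82 CPM on TH; log2 fold change 0.81, SE 0.15, edgeR adjusted p = 0.00849). Gart and Atic, which carry out the folate-dependent formylations, rose 1.60-fold (log2 SE 0.17) and 1.44-fold (log2 SE 0.14), and Ppat, the first committed step, rose 1.59-fold (log2 SE 0.15). The genes that fell were Impdh1 (log2 fold change −0.28, SE 0.08) and Adssl1 (−0.47, SE 0.12), named after their values were seen. Pfas kept its call without each library in turn (adjusted p up to 0.0411). Gart and Atic lost theirs without THCaP replicate 1, TH replicate 1, TH replicate 2 or TH replicate 3, and Ppat without the first 3 of these (adjusted p up to 0.0871). The list had 1 gene higher without THCaP replicate 1, TH replicate 1 or TH replicate 2. It had 2 without TH replicate 3 and 5 without THCaP replicate 2. Over all genes those fits called 291, 1071, 294, 294 and 734 higher, in that order. The list had 0 genes lower without THCaP replicate 1, TH replicate 1, TH replicate 2 or TH replicate 3, and 1 without THCaP replicate 2. Over all genes those fits called 465, 1378, 506, 490 and 937 lower, in that order. Without THCaP replicate 3 the list had 10 genes higher and 2 lower, beside 2145 and 2020 of all genes.

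The methionine cycle and transsulfuration list had 2 genes higher and 0 lower of 9 (median 0.20), against 11.6% and 12.0% of all tested genes. At an unadjusted p under 0.05, at which all genes were not counted, edgeR had 3 higher and 1 lower. At an adjusted p under 0.05 DESeq2 called 3 and 0, and limma-voom 2 and 0. Over all tested genes DESeq2 called 1691 higher and 1723 lower, and limma-voom 1261 and 1384. The 2 genes called by edgeR were Cbs, which condenses serine with homocysteine (log2 fold change 0.47, SE 0.13), and Mtap, the methionine salvage enzyme (0.39, SE 0.11). Of 12 genes of serine use and transport, 3 rose and 1 fell (median 0.15), beside the same shares of all tested genes. The serine palmitoyltransferase subunits Sptlc1 (0.47, SE 0.09) and Sptlc2 (0.40, SE 0.10) and the neutral amino acid transporter Slc1a4 (0.44, SE 0.11) rose, and phosphatidylserine synthase Ptdss2 fell (−0.42, SE 0.10). Of 18 genes of proline, glutamate and aspartate supply, 2 rose and 0 fell (median 0.16), which is near the 11.6% of all tested genes called higher. At an unadjusted p under 0.05 edgeR had 8 higher and 1 lower, which cannot be set beside 11.6%, since all genes were not counted there. At an adjusted p under 0.05 DESeq2 called 3 and 1, and limma-voom 2 and 0, beside the counts over all tested genes given above. The 2 genes called by edgeR were glutamine synthetase Glul (0.32, SE 0.08) and ornithine aminotransferase Oat (0.34, SE 0.10). Pycr1, a proline synthesis gene that acts after Aldh18a1, was not called (0.12, SE 0.12, edgeR adjusted p = 0.484) and was named after its value was seen. Without THCaP replicate 1 or TH replicate 2 these lists together kept 1 of Cbs, Mtap, Sptlc1, Sptlc2, Slc1a4, Ptdss2, Glul and Oat, namely Sptlc1, and without TH replicate 3 they kept 0 (edgeR adjusted p up to 0.150, for Cbs). Mtap, Slc1a4, Sptlc2, Glul and Oat also lost their call without THCaP replicate 2, and Cbs, Mtap, Ptdss2 and Oat without TH replicate 1.

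Of 25 tested factors and known targets of the ATF4 pathway outside the 10 genes, 1 rose, 9 fell and 15 were not called, with a median log2 fold change of −0.20 and 9 genes above 0. Over all tested genes 11.6% were called higher and 12.0% lower. Atf4 itself had 389, 394 and 368 CPM on THCaP, against 486, 404 and 428 CPM on TH. The libraries did not overlap, but the difference was not called (log2 fold change −0.20, SE 0.09, edgeR adjusted p = 0.129). Its activity is set largely by translation, which transcript levels do not show. Ddit3, which encodes CHOP, had 38.7, 34.5 and 43.4 CPM on THCaP, against 62.7, 59.0 and 69.5 CPM on TH (log2 fold change −0.71, SE 0.11, edgeR adjusted p = 0.00454). Cebpb, a partner of ATF4 (−0.64, SE 0.10), and the stress-induced Nupr1 (−0.64, SE 0.12) also fell, and these 3 genes kept their call without each library in turn (adjusted p up to 0.0414). The member that rose was the large neutral amino acid transporter Slc7a5, at 192, 249 and 153 CPM on THCaP against 126, 128 and 123 CPM on TH (log2 fold change 0.66, SE 0.15, edgeR adjusted p = 0.0162). Slc7a5 lost its call without TH replicate 2 (adjusted p = 0.0585) or TH replicate 3 (0.0638). The number of this list called lower was 4 without THCaP replicate 1, 5 without TH replicate 2 and 3 without TH replicate 3. Those fits called 465, 506 and 490 of all genes lower, in place of 1376. For this list the number was 7 without THCaP replicate 2, 10 without THCaP replicate 3 and 8 without TH replicate 1. Over all genes these latter fits called 937, 2020 and 1378 lower.

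**Figure D5:**
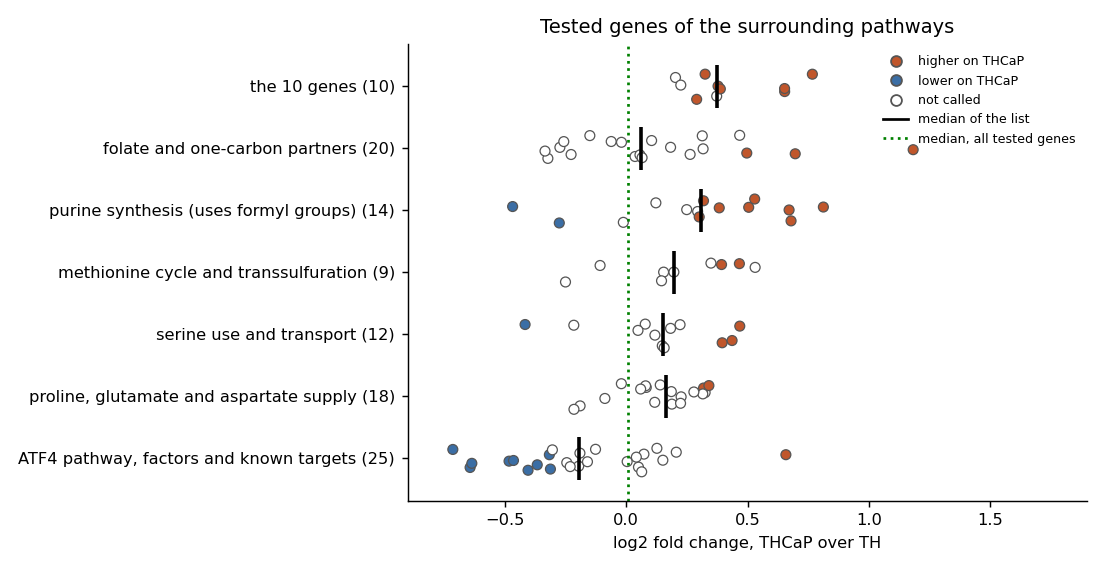
Log2 fold change (THCaP over TH) of every tested gene of the 10 and of 6 lists of surrounding pathways, with the number of genes in parentheses; filled points were called, black bars are list medians and the dotted line is the median of all tested genes. The medians of the 10 genes (0.38) and of purine synthesis (0.31) lie farthest to the right of the dotted line. That of the ATF4 list (−0.20) lies to its left, and those of the remaining lists (0.06 to 0.20) lie to its right.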

How the data were processed

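RNA of 6 libraries was analysed. The deposited counts are raw reads for each gene symbol. The submitters' processing notes name fastp, HISAT2, HTSeq and build mm10; versions, annotation and strand setting were not given in the sources used here. The FPKM values deposited by the authors come from these counts, since both gave a gene length whole within 0.01 bases for 100% of the 11079 genes with at least 10 counts in every library. Gene names are those of the table, of which 16050 of 16171 matched the mouse gene tables. Overlaps came from GENCODE vM21 (GRCm38).

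The counts were fitted whole with edgeR 4.0.16 (R 4.3.3), using filterByExpr at its minimum count of 10 and minimum total of 15, TMM factors and the robust quasi-likelihood F test of THCaP against TH without covariates, with Benjamini-Hochberg adjustment over 11480 genes. The procedure was tested on simulated data. The SE was the size of the log2 fold change over the root of F. A count of 0 allows up to 3 counts, at most 0.107 CPM, counting error only. Libraries of a surface differed by more than sampling noise (chi-square per degree of freedom at least 3.84).

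The 10 genes and the pathway lists were chosen with earlier results of these data known. From each list up to 4 called genes with at least 5 CPM and the largest change were named, and Atf4 and Tyms in every case. A further gene that this rule names is counted in its list but not reported here. Alternatives were DESeq2 1.42.0, limma-voom (limma 3.58.1), RLE factors, library totals, other filters, the replicate number as a block, limma on log2(FPKM + 1) and log2(FPKM + 0.1) at a mean FPKM of at least 1, and each library left out. Leaving out TH replicate 1 with THCaP replicate 2, and counts over all genes and lists, were added after seeing the data.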

Additional observations from a re-analysis of the deposited data

How the results depend on the processing

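No log2 fold change of the 10 genes or of the 19 other genes reported under the naming rule turned sign under an alternative. Genes named after their values were seen are not among the 19. Of the 10 genes, 6 to 9 were called higher and 0 lower with RLE factors, library totals, no filter, a filter of 5 CPM, DESeq2, limma-voom, the replicate block or filtered FPKM. With log2(FPKM + 1) and no filter 2 of the 10 genes were called, 729 of all genes were higher and 530 lower, and 7 of 98 pathway genes were higher and 5 lower in place of 19 and 12. Leaving out each library in turn gave 0 to 10 of the 10 genes, 291 to 2145 genes higher and 465 to 2020 lower over all genes, and 4 to 32 pathway genes higher and 3 to 17 lower. Without TH replicate 1 and THCaP replicate 2 together 7 of the 10 genes were called higher, 6 of them shared with the 7 reported. Library totals called 1904 genes higher and 1063 lower in place of 1333 and 1376. Same-numbered libraries of the surfaces did not deviate together (correlations −0.02, −0.07 and 0.06), so the numbers were not taken as pairs, and with the replicate block 8 of the 10 genes were called, Psph (adjusted p = 0.0215) being added. Among the 18 other called genes reported under the naming rule, 6 passed whichever library was left out, and of the 7 among the 10 genes 0 did. Impdh1, Adssl1 and Eif2ak2, which were called but named after their values were seen, were not counted among the 18. The 3 ratios kept their direction with each library left out, at −0.14 to −0.04 for Shmt2 to Shmt1, −0.57 to −0.26 for Mthfd1l to Mthfd1 and −0.32 to −0.16 for Mthfd2 to Mthfd1. Depth was not limiting: the lowest of the 10 genes, Shmt1, had at least 576 counts in each library.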

Other observations

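The glycine cleavage system and the folate enzymes that burn carbon units, which do not belong to the 10 genes, were low or not called. Gldc, the glycine decarboxylase, was too low to test, with 18 counts in all on THCaP and 34 on TH. Its partners Gcsh (log2 fold change 0.18, SE 0.11), Amt (−0.23, SE 0.18) and Dld (0.07, SE 0.10) were not called (edgeR adjusted p of 0.251, 0.369 and 0.642). The formyl-tetrahydrofolate dehydrogenases were not called either: cytosolic Aldh1l1 averaged 6.87 CPM on THCaP and 8.67 CPM on TH (edgeR adjusted p = 0.128), and mitochondrial Aldh1l2 47.4 CPM on THCaP and 46.2 CPM on TH (adjusted p = 0.840). Mthfd2l, the paralogue of Mthfd2, stood at 3.51 CPM on THCaP and 3.66 CPM on TH (adjusted p = 0.834). Sfxn1, the mitochondrial serine transporter, averaged 99.9 CPM on THCaP and 96.1 CPM on TH (adjusted p = 0.607).

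Among the kinases that act upstream of ATF4, the interferon-induced Eif2ak2 fell (log2 fold change −0.32, SE 0.08, edgeR adjusted p = 0.0273), at 80.0 CPM on THCaP and 99.6 CPM on TH. Eif2ak1 (0.13, SE 0.08), Eif2ak3 (−0.30, SE 0.13) and Eif2ak4 (−0.24, SE 0.10) were not called. These genes were named after their values were seen, and no explanation was tested.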
